A study of Mus musculus with 2 samples.

Results

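Interferon response genes were described in liver non-parenchymal cells (NPCs) of 1 normal and 1 fibrotic mouse. A list of 46 genes was looked up by symbol in both libraries. Of these, 45 had a row in both tables, out of 21722 genes with a row in either table, and Mx2 was not analysed here. The normal library (Q) came from a male C57BL/6 mouse that received olive oil, and the fibrosis library (F) from a male C57BL/6 mouse that received CCl4 in olive oil, a hepatotoxin that gives repeated injury and scarring. Both were 8 weeks old at the start and were injected intraperitoneally 2 times a week for 6 weeks. Hepatocytes were largely removed by low-speed spins after collagenase perfusion, and the remaining cells were profiled by droplet single-cell RNA sequencing (10x Genomics 3′ chemistry v3). Each condition was thus 1 mouse and 1 library, so no test between conditions was possible, and a difference between the libraries cannot be told apart from a difference between those mice.

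Interferons are secreted proteins that cells release when they sense foreign or misplaced nucleic acid, or when T and NK cells are activated. Type I interferons (interferon alpha and beta) bind the receptor chains Ifnar1 and Ifnar2 and act through a complex that includes Stat2 and Irf9 on a promoter element called the interferon-stimulated response element (ISRE). Interferon gamma, made mainly by T and NK cells, binds Ifngr1 and Ifngr2 and acts on the gamma-activated site (GAS), and it is a strong inducer of guanylate-binding proteins and immunity-related GTPases. The products restrict viruses, sense their RNA and DNA, attack the vacuoles of intracellular microbes and attract lymphocytes. In the liver, Kupffer cells, dendritic cells and sinusoidal endothelium are known to respond to both kinds of interferon.

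To show the elements named above, the 200 bases before the transcription start are given for members on which the later comparisons turn. They come from RefSeq promoters of build GRCm38.p6 and are written 5′ to 3′ on the strand of the gene. Capitals mark the ISRE letters, GAAA and GAAA with any 2 bases between them on either strand, or the GAS letters, TTC and GAA with any 3 bases between them, which read the same on both strands, and overlapping matches run together. The first group holds a type I target of each kind described below, the ubiquitin-like modifier Isg15 at chr4:156200819-156201018 (minus strand), the antiviral tetratricopeptide protein Ifit3 at chr19:34583329-34583528 (plus strand) and the radical SAM enzyme Rsad2 (viperin) at chr12:26456453-26456652 (minus strand).
Isg15: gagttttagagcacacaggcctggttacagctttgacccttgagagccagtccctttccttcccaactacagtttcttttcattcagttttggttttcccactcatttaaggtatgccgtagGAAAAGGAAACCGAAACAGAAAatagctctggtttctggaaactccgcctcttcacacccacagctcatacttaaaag
Ifit3: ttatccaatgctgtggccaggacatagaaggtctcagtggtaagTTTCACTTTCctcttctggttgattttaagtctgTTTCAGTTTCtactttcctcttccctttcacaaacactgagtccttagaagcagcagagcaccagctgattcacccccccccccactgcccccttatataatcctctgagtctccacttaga
Rsad2: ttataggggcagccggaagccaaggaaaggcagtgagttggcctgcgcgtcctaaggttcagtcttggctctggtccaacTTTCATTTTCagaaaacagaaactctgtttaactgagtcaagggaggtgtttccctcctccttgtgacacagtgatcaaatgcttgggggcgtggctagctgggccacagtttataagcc
The second group holds the transcription factors Irf1 at chr11:53769814-53770013 (plus strand) and Irf8 at chr8:120736158-120736357 (plus strand), which carried GAS but no ISRE letters in these windows.
Irf1: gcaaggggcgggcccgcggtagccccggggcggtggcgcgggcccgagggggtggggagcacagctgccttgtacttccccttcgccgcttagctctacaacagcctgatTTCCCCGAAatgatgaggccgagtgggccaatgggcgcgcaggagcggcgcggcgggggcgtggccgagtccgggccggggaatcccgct
Irf8: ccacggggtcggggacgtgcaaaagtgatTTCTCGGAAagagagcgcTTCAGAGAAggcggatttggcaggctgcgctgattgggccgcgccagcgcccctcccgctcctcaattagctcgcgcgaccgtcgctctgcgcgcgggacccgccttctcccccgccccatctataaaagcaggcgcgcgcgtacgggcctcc
The third group holds the GTPases Gbp7 at chr3:142530136-142530335 (plus strand) and Igtp at chr11:58199356-58199555 (plus strand), which carried both.
Gbp7: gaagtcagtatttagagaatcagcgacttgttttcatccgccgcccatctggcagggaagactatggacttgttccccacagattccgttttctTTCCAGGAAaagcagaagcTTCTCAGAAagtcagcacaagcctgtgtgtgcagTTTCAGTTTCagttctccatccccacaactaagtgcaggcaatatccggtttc
Igtp: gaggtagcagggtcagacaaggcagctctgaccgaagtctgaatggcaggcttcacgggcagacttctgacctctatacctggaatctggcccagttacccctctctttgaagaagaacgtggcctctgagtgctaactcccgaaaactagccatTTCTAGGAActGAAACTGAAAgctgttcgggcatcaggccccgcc
None of the 7 windows overlaps an annotated exon in GENCODE. The Ifit3 window lies inside the RefSeq span of its gene, which begins at 34583119, and the others lie outside the span of theirs.

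Over windows from 250 bases before to 50 bases after the start, a RefSeq promoter was found for 38 of the members. ISRE letters were present in 22 of these 38 (57.9%) against 1079 of 27025 genes (3.99%), and GAS letters in 15 (39.5%) against 2582 genes (9.55%). Both motifs were present in 7 members. All 6 GTPases with a promoter had ISRE letters and 3 of them also had GAS letters, whereas 0 of the 4 receptor chains had ISRE letters. Several members also lie next to each other in the genome (RefSeq positions, GRCm38.p6). Ifit2, Ifit3, Ifit3b and Ifit1 follow each other on chromosome 19 between 34550550 and 34650009, and Gbp5, Gbp7, Gbp3 and Gbp2 on chromosome 3 between 142496934 and 142638008. Ifitm2, Ifitm1 and Ifitm3 lie on chromosome 7 between 140954837 and 141010744, with Irf7 near by. Members of these families share sequence, and Ifit3 and Ifit3b are near-identical, so the split of reads between them is uncertain.

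The normal library held 8130 barcodes with a median of 4144 unique molecular identifiers (UMIs, counted RNA molecules), and the fibrosis library 6437 with a median of 5619. Of these, 7471 and 6132 passed the filter stated in the study's methods. The study itself reported clusters of 8130 and 6437 cells, so its set of cells was larger. Cells were clustered in each library without the interferon genes and named by marker lists, and names are given as "-like". This gave 2285 normal and 1222 fibrosis endothelial cells, 962 and 1411 myeloid cells, 1350 and 1255 lymphoid cells, and 148 and 266 mesenchymal cells. All 16 sinusoidal endothelial (LSEC) markers were detected in endothelial cells, at a summed 270 UMIs per 10000 UMIs for normal and 259 for fibrosis, and all 12 Kupffer markers in myeloid cells, at 91.6 and 119. Sub-clusters led within their lineage by markers of another lineage (1025 normal and 740 fibrosis cells), by cell cycle genes (244 fibrosis cells) or by basophil and mast cell genes (11 fibrosis cells) were left out of the lineages, as were 259 normal cells in clusters of cycling cells. Those left out include 127 and 85 fibrosis cells led within the mesenchymal lineage by LSEC and by Kupffer markers, which carried HSC/MF (hepatic stellate cell and myofibroblast) markers when set against all cells. From the normal library they include 62 mesenchymal and 372 myeloid cells. Whole-library clusters named HSC/MF (121 cells) and Kupffer (236 and 232 cells) there stand beside 60 and 211 normal cells in the classes compared. The libraries shared 15 barcodes. Hepatocyte markers were at a summed 183 UMIs per 10000 in normal and 13.5 in fibrosis endothelial cells, and the former include a sub-cluster led within the lineage by hepatocyte genes such as Mup21 and Ces1d. Free RNA and such cells cannot be told apart here. Median UMIs per cell also differed, at 5510 and 8110 in endothelial, 6368 and 7356 in myeloid, 3377 and 2158 in lymphoid and 8000 and 14572 in mesenchymal cells.

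Levels are the summed UMIs of a gene per 10000 UMIs of a group of cells. Ratios are fibrosis over normal with an exact 95% interval in parentheses that covers counting error only, not the spread between mice. A member was called higher or lower where it reached 0.2 UMIs per 10000 in either library, differed at least 2-fold and had an interval without 1.

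Across lineages, the members were lower in myeloid cells of the fibrosis library and, by a smaller margin in their median ratio, in mesenchymal cells. In endothelial cells none was called, with more intervals below 1 than above it, and in lymphoid cells the members were mixed. In myeloid cells 43 members reached the floor, and 10 were called lower, against 7.79% of the 7641 genes at the floor, and 1 was called higher, against 6.54%. Their median ratio was 0.701 beside 1.01 over all genes. The mix of myeloid classes also differed, and macrophage-like cells gave 293258 of 6230360 normal and 4014744 of 12847188 fibrosis myeloid UMIs. The part of that mix in the myeloid counts was not tested. In mesenchymal cells 3 of 41 members were called lower (7.45% of all genes) and 1 higher (6.72% of all genes), with a median ratio of 0.783 beside 1.07. An interval below 1 was found for 21 of the 41 (19.4% of all genes) and above 1 for 7 (2193 of all 8228 genes). Over the processing alternatives 0 to 7 mesenchymal members were called lower and 0 to 13 higher, with 13 higher as UMIs per cell. In endothelial cells 0 of 39 members were called higher (3.03% of all genes) or lower (5.7% of all genes), and the median ratio was 0.908 beside 1.04. An interval below 1 was found for 20 of the 39 (28.1% of all genes) and above 1 for 11 (40.1% of all genes). In lymphoid cells 7 of 38 members were called higher, against 13.8% of all genes, and 4 lower, against 6.77%, with a median of 1.13 beside 1.24. The lower members of myeloid cells made up a larger share than the lower ones among all genes. The lymphoid counts and the mesenchymal count of lower members lay near the shares of all genes. The floor looks at either library, so these counts describe the members that passed it and are no test.

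**Figure D1:**
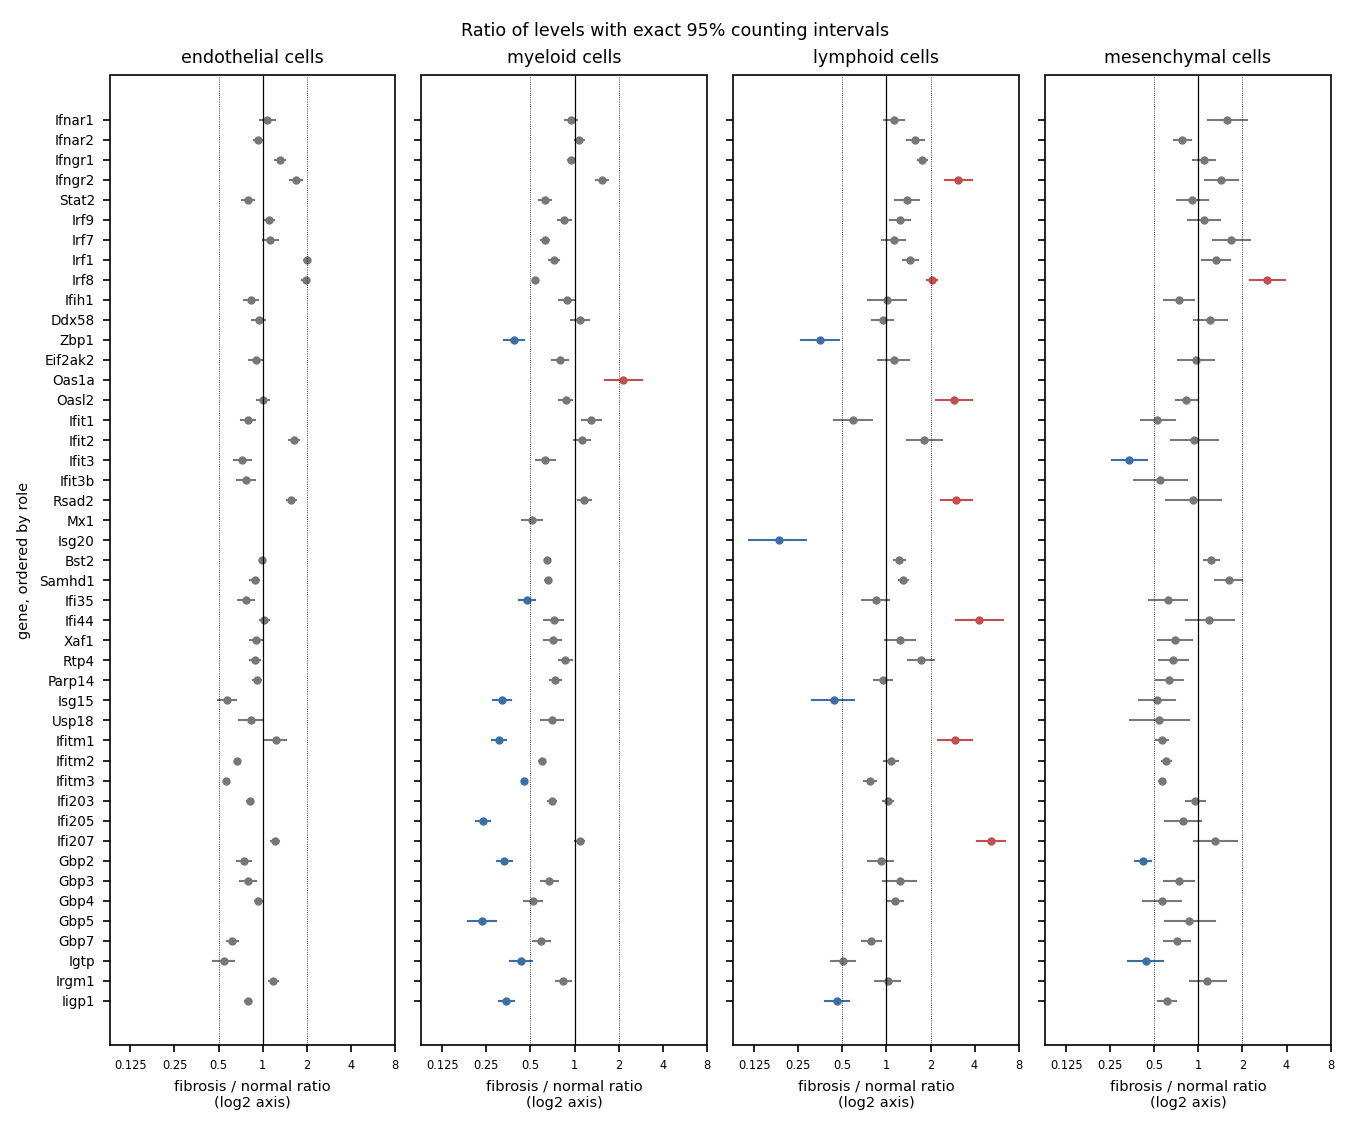
Ratio of each member's level, fibrosis over normal (log2 axis), in endothelial, myeloid, lymphoid and mesenchymal cells, with genes ordered by role from receptors at the top to GTPases at the bottom. Points are ratios of 1 library to 1 library, bars are exact 95% counting intervals, dotted lines mark 2-fold, red and blue points are members called higher and lower, and members below 0.2 UMIs per 10000 in both libraries are left blank. The blue points gather in the myeloid panel (10 members) and the red points in the lymphoid panel (7 members).

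The receptor chains stayed within 2-fold between the libraries in endothelial, myeloid and mesenchymal cells. Ifnar1, the first chain of the type I receptor, was at 0.497 and 0.537 UMIs per 10000 in endothelial cells (normal, then fibrosis) and at 1.09 and 1.03 in myeloid cells. Ifnar2, its partner, was at 1.33 and 1.24 in endothelial and at 2.18 and 2.36 in myeloid cells. In the other lineages the ratio of Ifnar1 was 1.57 (1.17 to 2.14) in mesenchymal cells and that of Ifnar2 was 1.58 (1.38 to 1.80) in lymphoid cells. Ifngr1, the ligand-binding chain for interferon gamma, was at 3.98 and 3.77 in myeloid cells, and in lymphoid cells it was at 2.58 and 4.54 (ratio 1.76, 1.63 to 1.89). Among classes its level was highest in cDC1-like cells of the normal library (7.32) and in NK cell-like cells of the fibrosis library (8.47). Ifngr2, the signalling chain, was higher in all 4 lineages of the fibrosis library. Its ratio was 1.69 (1.55 to 1.85) in endothelial, 1.54 (1.40 to 1.69) in myeloid, 1.44 (1.11 to 1.88) in mesenchymal and 3.10 (2.51 to 3.83) in lymphoid cells, where it went from 0.253 to 0.782. Only the lymphoid ratio passed the 2-fold limit, and there the level in erythroid-like cells of the same libraries differed in the same direction (0.112 and 1.14).

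Transcription factors of the pathway differed in direction between lineages. Irf1, an early target of interferon gamma, was at 2.18 in normal and 4.36 in fibrosis endothelial cells (ratio 1.997, 1.91 to 2.09), just under the 2-fold limit. Its level was highest in portal vessel EC-like cells of both libraries (3.01 and 5.36), and in central vein EC-like cells it was 2.01 and 4.45 (2.22, 1.92 to 2.57). In myeloid cells Irf1 was lower in fibrosis, at 1.74 and 1.25 (0.721, 0.668 to 0.780). The endothelial level in fibrosis stood above that of the other 3 lineages, among which lymphoid cells came next at 1.65. Erythroid-like cells, in which endothelial markers such as Kdr were also higher in fibrosis (3.88 and 16.6), held 0.342 and 3.82 of Irf1. Stat2, a subunit of the type I complex, was lower in myeloid cells (1.20 and 0.758, ratio 0.631) and in endothelial cells (0.830 and 0.658, ratio 0.793). Irf9, the DNA-binding subunit of that complex, stayed between 0.851 and 1.23 times normal in the 4 lineages. Irf7, which amplifies interferon alpha production, was highest in Kupffer-like cells of both libraries, at 4.98 and 3.40, and in myeloid cells as a whole it was at 2.83 and 1.78 (0.630, 0.592 to 0.670).

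Irf8, a factor required for dendritic cell and monocyte development, was a gene of dendritic cells. In pDC-like cells it was at 45.6 and 33.9 (47.6 without a fibrosis sub-cluster of 42 cells described with Ifitm2), and in cDC1-like cells at 30.5 and 28.5, whereas Kupffer-like cells held 3.73 and 4.71. Over all myeloid cells it was at 14.2 and 7.58 (0.533, 0.518 to 0.549). The composition of the lineage differed as well, and pDC-like and cDC1-like cells were 143 and 85 of 962 normal but 146 and 48 of 1411 fibrosis myeloid cells. In the other lineages Irf8 was higher in fibrosis, at 1.23 and 2.42 in endothelial (1.97, 1.85 to 2.09), 1.995 and 4.08 in lymphoid (2.05, 1.89 to 2.22) and 0.435 and 1.28 in mesenchymal cells (2.94, 2.25 to 3.91, but 1.69 with mixed sub-clusters included). Summed Kupffer markers moved in the same direction in these cells, from 6.55 to 15.1 UMIs per 10000 in endothelial, 6.34 to 37.1 in lymphoid and 5.10 to 14.3 in mesenchymal cells, with all 12 markers detected. Irf8 in endothelial cells stood at 32.0% of its myeloid level in fibrosis. The 12 Kupffer markers stood there at 5.10% to 22.8% of theirs (median 12.2%) and the 12 macrophage markers at 2.84% to 113% (median 9.68%). Within lymphoid cells Irf8 was at 4.49 and 6.27 in B cell-like cells. The part of myeloid RNA in the Irf8 differences outside the myeloid lineage was not tested.

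Among sensors of foreign nucleic acid, Zbp1, Oas1a and Oasl2 were called in at least 1 lineage. Zbp1, a sensor of Z-form nucleic acid that triggers necroptosis, was at 0.612 in normal and 0.237 in fibrosis myeloid cells (0.387, 0.332 to 0.451) and at 0.495 and 0.175 in lymphoid cells (0.354, 0.261 to 0.473). It was low in both lineages of the fibrosis library. Its level was highest in monocyte-like cells of both libraries, at 1.42 and 0.372, with intervals that overlapped those of the second class. The RNA helicases Ddx58 (RIG-I) and Ifih1 (MDA5) were at 0.504 and 0.548, and at 0.634 and 0.561, in myeloid cells, and Eif2ak2, the RNA-activated kinase PKR, was at 0.676 and 0.538. None of these 3 was called in any lineage. Oas1a, an oligoadenylate synthetase that activates RNase L, was the only member called higher in myeloid cells, at the low levels of 0.0979 and 0.209 (2.14, 1.61 to 2.87). Oasl2, a related protein, was at 1.04 and 0.905 in myeloid cells and at 0.144 and 0.413 in lymphoid cells (2.87, 2.16 to 3.83).

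Antiviral effectors of the Ifit family, which bind viral RNA ends, split in the endothelium. Ifit2 was at 0.853 and 1.40 in endothelial cells (1.64, 1.52 to 1.77), while Ifit1 was at 0.561 and 0.445 (0.794, 0.707 to 0.891) and Ifit3 at 0.456 and 0.331 (0.726, 0.636 to 0.828). Rsad2, whose product makes a chain-terminating nucleotide, followed Ifit2 at 1.03 and 1.61 (1.57, 1.46 to 1.69). In central vein EC-like cells Rsad2 was 0.601 and 1.88 (3.13, 2.42 to 4.11) and in portal vessel EC-like cells 0.602 and 1.28 (2.12, 1.73 to 2.60). In mesenchymal cells Ifit3 was called lower, at 0.753 and 0.254 (0.337, 0.256 to 0.444). HSC/MF-like cells held 1.72 in the 60 normal and 0.427 in the 128 fibrosis cells (0.248, 0.177 to 0.348). The cells behind that name differed, since the normal sub-cluster was led within the lineage by Ighm, Ccl4 and Ccl5, and the fibrosis ones by Ogn, Spon2 and Vegfd (80 cells) and by genes such as Tmem56, Angptl6 and Mapt (48 cells), with HSC/MF markers at a summed 303 and 178. Ifit3 was at 0.459 and 0.325 in these 2 fibrosis sub-clusters. Mx1, a GTPase whose gene carries a deletion in C57BL/6 mice, did not exceed 1.07 in any class and was highest in cDC1-like cells, at 0.922 and 1.07 (0.638, 0.417 to 0.935, in fibrosis without the 1 cell described later).

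Among the remaining effectors, Bst2 (tetherin), which holds budding virions at the cell surface, was a marker of pDC-like cells, at 35.0 and 19.3. The next class, LSEC-like cells, held 7.43 and 7.42, and the endothelium as a whole was at 7.03 and 6.93 (0.987, 0.957 to 1.02). Samhd1, which depletes nucleotides needed for reverse transcription, was at 4.81 and 3.17 in myeloid cells (0.659, 0.628 to 0.691). Ifi35, a regulator of the RIG-I pathway, was at 0.822 and 0.387 in myeloid cells (0.471, 0.415 to 0.534). Isg20, an exonuclease, was highest in plasma cell-like cells of the normal library (1.19), and in lymphoid cells it was at 0.409 and 0.0751 (0.184, 0.115 to 0.280). Median UMIs of plasma cell-like cells were 13144 and 1332, so their values rest on cells of very different depth. Ifi44, induced by type I interferon, was at 1.20 and 1.23 in endothelial cells, and in lymphoid cells it was at 0.0772 and 0.332 (4.30, 3.00 to 6.25). Xaf1, Rtp4 and Parp14 were within 2-fold in the 4 lineages, with ratios between 0.634 (Parp14 in mesenchymal cells) and 1.72 (Rtp4 in lymphoid cells).

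**Figure D2:**
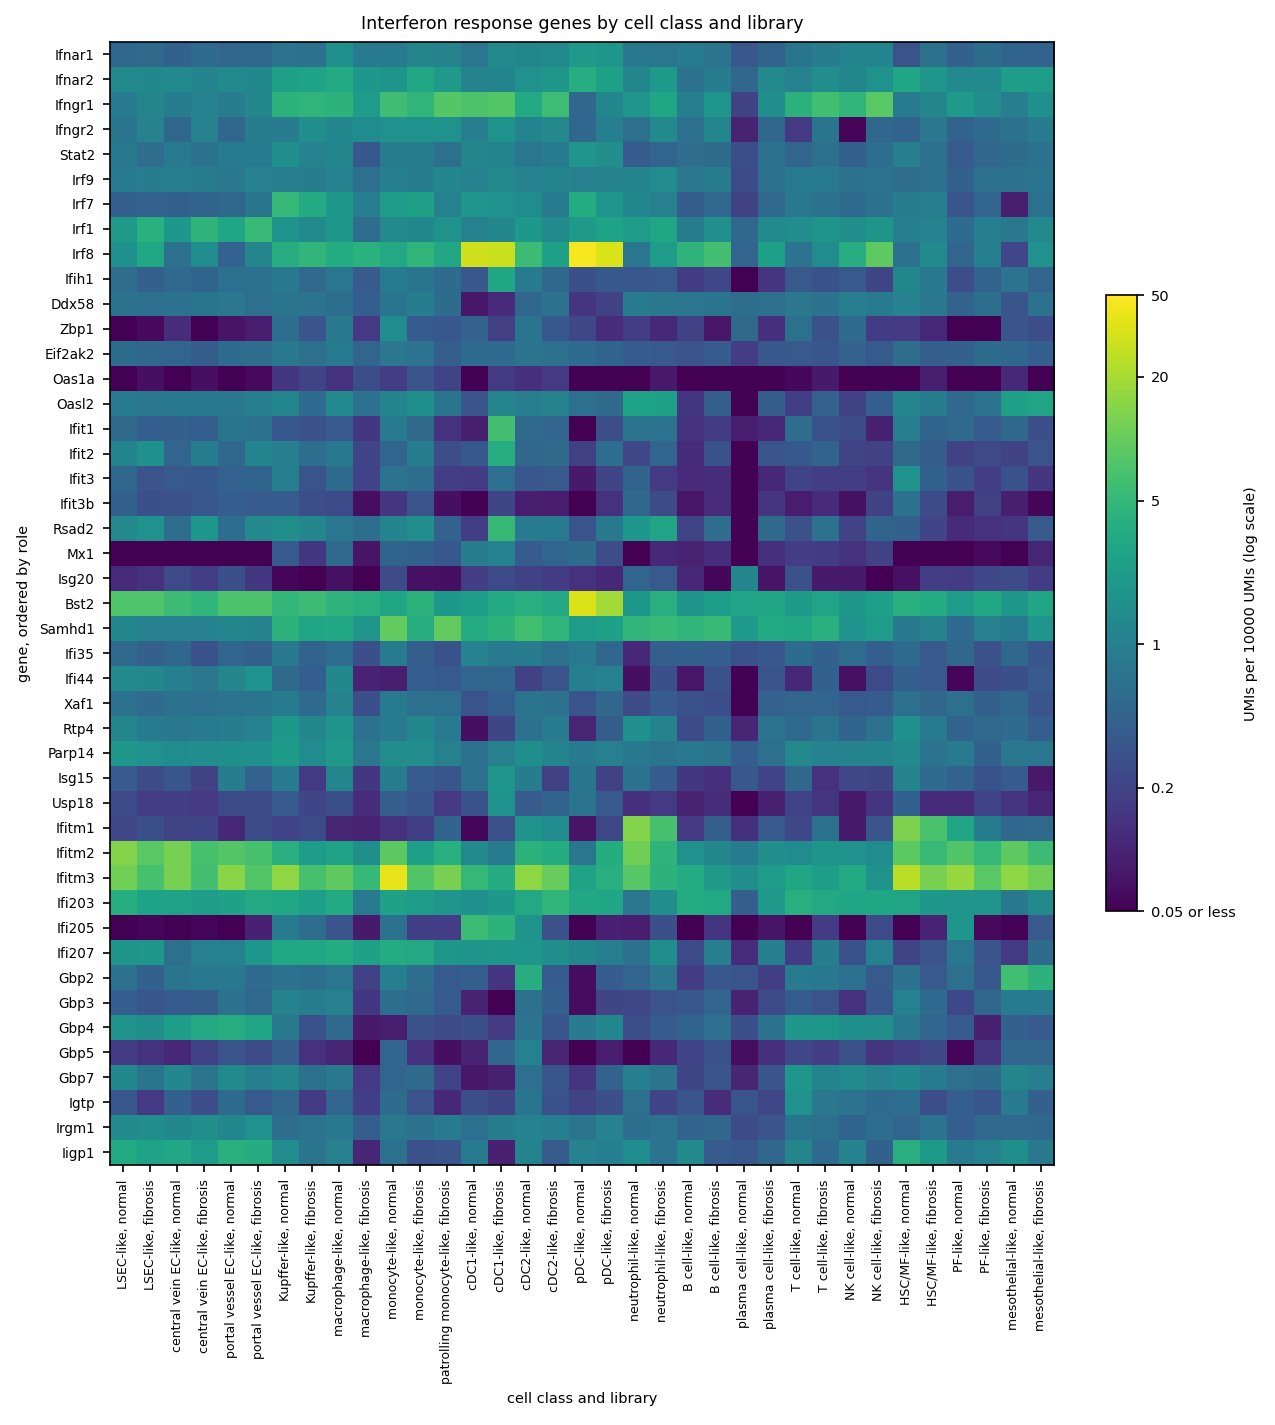
Level of each member (rows, by role) in each named class and library (columns), as UMIs per 10000 UMIs on a log colour scale on which levels of 0.05 or less share the darkest colour. Irf8 and Bst2 stand out in pDC-like cells, Ifitm3 in normal monocyte-like cells (40.0), and Ifit1, Ifit2 and Rsad2 in fibrosis cDC1-like cells, where 1 cell holds most of them.

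Isg15, a ubiquitin-like protein that is conjugated to other proteins under interferon, was lower in all 4 lineages of the fibrosis library. It was at 0.833 and 0.266 in myeloid (0.3196, 0.278 to 0.367), 0.344 and 0.1502 in lymphoid (0.437, 0.312 to 0.602), 0.627 and 0.326 in mesenchymal (0.520, 0.396 to 0.688) and 0.472 and 0.271 in endothelial cells (0.575, 0.499 to 0.660). Only the first 2 of these passed the 2-fold limit. Within the myeloid lineage it was lower in Kupffer-like cells (0.843 and 0.161), cDC2-like cells (0.920 and 0.187), macrophage-like cells (1.16 and 0.154), monocyte-like cells (0.947 and 0.364) and pDC-like cells (0.736 and 0.195). The cDC1-like class was at 0.678 and 1.84, and at 0.172 in fibrosis without 1 cell that is described later. Usp18, which removes Isg15 from proteins and dampens the type I receptor, was at 0.385 and 0.270 in myeloid cells (0.701, 0.593 to 0.830).

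The Ifitm genes, membrane proteins that block fusion of enveloped viruses, were present in all 4 lineages, and Ifitm3 was lower in every lineage of the fibrosis library. Ifitm3 was at 12.3 and 6.88 in endothelial (0.559, 0.543 to 0.574), 13.9 and 6.33 in myeloid (0.455, 0.441 to 0.469), 18.8 and 10.6 in mesenchymal (0.564, 0.537 to 0.592) and 2.81 and 2.17 in lymphoid cells (0.772, 0.705 to 0.844). In monocyte-like cells Ifitm3 was at 40.0 and 7.61 (0.190, 0.180 to 0.202). The clusters behind that name were not alike, since the 12 Kupffer markers summed to 9.47 in the normal and 105 in the fibrosis monocyte-like cells, and the 10 patrolling monocyte markers to 31.6 and 7.92. Patrolling monocyte-like cells, named in the fibrosis library only, held 12.1. Kupffer-like cells held 16.0 and 6.70 (0.418, 0.392 to 0.445), with summed Kupffer markers of 316 and 336. HSC/MF-like cells held 24.2 and 12.01 (0.497, 0.461 to 0.536).

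Ifitm2 was lower in 3 lineages, at 11.9 and 7.89 in endothelial (0.665, 0.648 to 0.683), 4.09 and 2.46 in myeloid and 8.54 and 5.14 in mesenchymal cells, but not in lymphoid cells, at 1.40 and 1.502 (1.08, 0.958 to 1.21). In pDC-like cells it was at 0.746 and 3.64 (4.88, 3.79 to 6.35). The fibrosis class included a sub-cluster of 42 cells led by Edn1, Cd4, Klk1 and Cd8b1, with LSEC markers at a summed 159 UMIs per 10000 beside 13.4 in the normal class, from which a sub-cluster of 48 cells led by LSEC genes had been left out as mixed. In the other 104 cells Ifitm2 was at 0.996 (1.34, 0.924 to 1.92). Ifitm1 was highest in neutrophil-like cells, at 13.9 and 6.72, and HSC/MF-like cells, at 12.7 and 6.79. PF-like cells (portal fibroblasts) held 3.01 and 0.915, whereas cDC1-like cells of the normal library held 0.0555. In myeloid cells as a whole it was at 1.48 and 0.452 (0.304, 0.274 to 0.338). Neutrophil-like cells made up 170 of 962 normal and 192 of 1411 fibrosis myeloid cells.

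PYHIN proteins, which bind DNA in the nucleus and cytosol, were represented by Ifi203, Ifi205 and Ifi207. Ifi205 was a gene of cDC1-like cells, at 5.72 and 4.40, and in myeloid cells as a whole it was at 1.53 and 0.362 (0.236, 0.211 to 0.264). In cDC2-like cells it was at 1.80 and 0.274 (0.153, 0.0902 to 0.244). The normal cDC2-like cluster was also led by Mpo, Elane and Prtn3, genes of granulocyte precursors, and the fibrosis cluster was not. Ifi203 was broadly present, at 2.72 and 1.91 in myeloid (0.703, 0.661 to 0.749) and 2.91 and 2.98 in lymphoid cells. Ifi207 was even in myeloid cells, at 2.24 and 2.43, and was called higher in lymphoid cells, at 0.190 and 0.979 (5.17, 4.14 to 6.49).

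The interferon gamma-inducible GTPases, which coat and rupture microbial vacuoles, were lower as a group in myeloid and mesenchymal cells. In myeloid cells all 8 had an interval below 1, as did 33% of all genes, and 4 were called lower, as were 7.79% of all genes. Gbp2 was at 1.20 and 0.398 (0.332, 0.296 to 0.372), Gbp5 at 0.408 and 0.0950 (0.233, 0.186 to 0.290), Iigp1 at 1.12 and 0.382 (0.342, 0.304 to 0.385) and Igtp at 0.482 and 0.207 (0.430, 0.363 to 0.509). Gbp3, Gbp4, Gbp7 and Irgm1 had ratios from 0.518 (Gbp4) to 0.838 (Irgm1). In mesenchymal cells 6 of 8 had an interval below 1 (19.4% of all genes), and Gbp2 at 2.91 and 1.22 (0.418, 0.367 to 0.477) and Igtp at 0.671 and 0.293 (0.437, 0.332 to 0.577) were called lower, as were 7.45% of all genes (Gbp2 at 0.267 with a mitochondrial limit of 5%). Mesothelial-like cells, with 44 normal and 47 fibrosis cells, held the most Gbp2 in both libraries, at 6.14 and 4.40. In endothelial cells 6 of the 7 at the floor had an interval below 1 (28.1% of all genes) and Irgm1 had one above 1 (40.1% of all genes), at 1.30 and 1.55 (1.19, 1.11 to 1.27). None of the endothelial GTPases was called, and the ratios nearest the limit were Igtp at 0.541 (0.387 and 0.210) and Gbp7 at 0.622 (1.26 and 0.783). In lymphoid cells Iigp1 was called lower, at 1.02 and 0.469 (0.460, 0.382 to 0.551), and Igtp was next at 0.893 and 0.451 (0.505, 0.416 to 0.608).

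Igtp and Gbp7 were highest in T cell-like cells of both libraries. Igtp was at 1.66 and 0.771 in them, and Gbp7 at 1.88 and 1.12, but the sub-clusters behind that name were not alike and these levels are not compared. Gbp4 and Iigp1 were high in vessel endothelium, with Gbp4 at 3.69 and 2.89 and Iigp1 at 4.03 and 3.602 in portal vessel EC-like cells. In cDC2-like cells Gbp2 was at 3.68 and 0.375 (0.102, 0.0658 to 0.151) and Gbp5 at 1.04 and 0.101 (0.0969, 0.0383 to 0.205), which were the smallest GTPase ratios among the classes compared. The cDC2-like clusters were led by different genes, such as Mpo, Elane, Prtn3, Ccl17 and Ccl22 in the normal and Cd209a, Klrd1 and Ctnnd2 in the fibrosis library. For these ratios a difference in cell kind and one within a kind cannot be told apart. In pDC-like cells Gbp2 was at 0.0622 and 0.373 (6.01, 2.55 to 17.3), and at 0.196 in the 104 fibrosis cells outside the sub-cluster with LSEC markers.

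Summed levels put these patterns side by side. The sets were 20 type I core genes (19 with a row) and the 8 GTPases. The type I core set was at 10.9 in normal and 11.04 in fibrosis endothelial cells (1.01, 0.990 to 1.04), 13.9 and 10.6 in myeloid (0.764, 0.744 to 0.785), 5.18 and 6.27 in lymphoid (1.21, 1.14 to 1.28) and 9.53 and 7.58 in mesenchymal cells (0.796, 0.746 to 0.849). With equal weight for each class the myeloid ratio was 1.01, but 0.769 without 1 fibrosis cDC1-like cell that is described later. The lymphoid ratio stands beside a median of 1.24 over all genes in those cells. The GTPase set was at 10.1 and 8.51 in endothelial (0.843, 0.821 to 0.866), 5.77 and 2.79 in myeloid (0.484, 0.462 to 0.507), 5.56 and 4.54 in lymphoid (0.817, 0.767 to 0.870) and 8.82 and 5.21 in mesenchymal cells (0.591, 0.551 to 0.634). The GTPase sum was thus lower in all 4 lineages of the fibrosis library on this scale, but with a mitochondrial limit of 5% the lymphoid ratio was 1.07. Cells of the fibrosis library held more UMIs in 3 lineages, and as UMIs per cell the GTPase ratio was 1.34 in endothelial and 1.10 in mesenchymal cells but 0.680 in myeloid and 0.493 in lymphoid cells. On that scale the type I core ratio turned to 1.07 in myeloid and 1.48 in mesenchymal cells and to 0.730 in lymphoid cells. The ratio over all genes moved by more than 0.1 on the log2 scale there, with a median of 0.73 in endothelial, 0.51 in myeloid, -0.42 in lymphoid and 0.99 in mesenchymal cells.

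**Figure D3:**
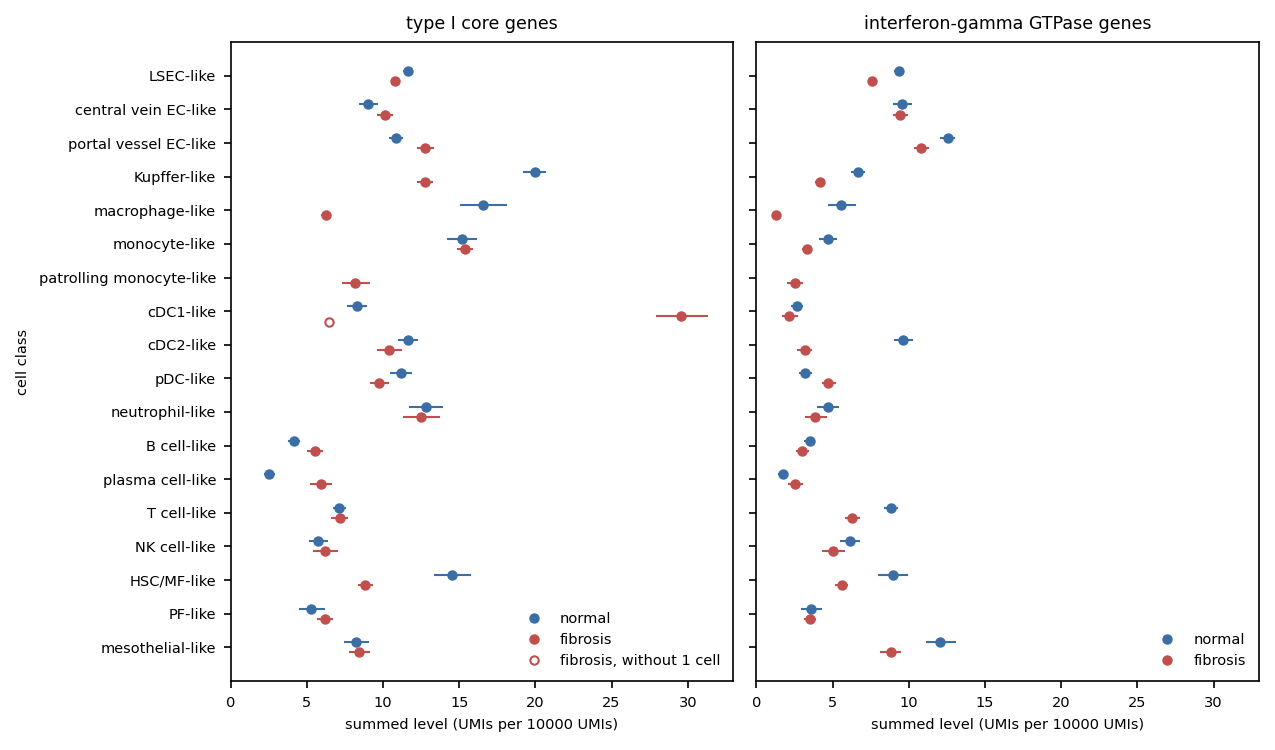
Summed level (UMIs per 10000 UMIs) of the type I core genes (left) and the interferon gamma GTPases (right) in each named class of the normal (blue) and fibrosis (red) library, with exact 95% counting intervals. Macrophage-like and Kupffer-like cells lie to the left in fibrosis in both panels, and the open circle gives the fibrosis cDC1-like class without 1 cell (6.43 instead of 29.6).

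By class, the lower myeloid levels were widest in macrophage-like cells. There the type I core sum was 16.5 in the 52 normal and 6.24 in the 199 fibrosis cells (0.377, 0.342 to 0.417) and the GTPase sum 5.56 and 1.30 (0.233, 0.195 to 0.280). Of 42 members at the floor, 26 were called lower in these cells, where 18.2% of all genes were, and 0 were called higher (7.9% of all genes). The 2 clusters that carry the name were led by different genes, Mmp13, Cxcl14, Cx3cr1 and Cd207 in the normal and Gpnmb, Fabp5, Lgals3 and Syngr1 in the fibrosis library, and the macrophage markers summed to 93.8 and 411. A difference in cell kind and one within a kind cannot be told apart here. Kupffer-like cells, in which the Kupffer markers were even, gave a type I core sum of 19.96 and 12.8 (0.639, 0.608 to 0.672) and a GTPase sum of 6.68 and 4.15 (0.622, 0.569 to 0.679). In them 8 of 44 members were called lower (4.58% of all genes) and 0 higher (4.04% of all genes), among them Isg15 (0.190), Ifit3 (0.312) and Gbp4 (0.351). Monocyte-like cells had an even type I core sum of 15.2 and 15.4 (1.01, 0.946 to 1.09) with a GTPase sum of 4.69 and 3.29 (0.702, 0.617 to 0.801). In HSC/MF-like cells 7 of 40 members were called lower (8.18% of all genes) and 2 higher (7.34% of all genes). Against the 80 cells alone 7 were lower (8.55% of all genes) and 2 higher (8.22% of all genes). The whole class gave 14.5 and 8.84 for the type I core (0.608, 0.554 to 0.668) and 8.93 and 5.60 for the GTPases (0.627, 0.557 to 0.707). In the endothelium the type I core sum was higher in portal vessel EC-like cells, at 10.9 and 12.8 (1.18, 1.11 to 1.24), and LSEC-like cells held 11.6 and 10.8. No ratio is given for LSEC-like, T cell-like and NK cell-like cells, since each held a normal sub-cluster with more leading markers of another class.

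The remaining classes differed in direction. In central vein EC-like cells 4 of 39 members, Rsad2, Irf1, Irf8 and Ifngr2, were called higher (4.87% of all genes) and 0 lower (6.9% of all genes). In portal vessel EC-like cells 4 of 41 were higher (4.85% of all genes), Irf8, Ifitm1, Ifit2 and Rsad2, and 1 lower (6.14% of all genes), Isg15 at 0.903 and 0.435. In cDC2-like cells, with the limit on that name given above, 9 of 42 were lower (7.88% of all genes), 5 of them GTPases, and 0 higher (9.83% of all genes). In monocyte-like cells 10 of 44 were lower (12.6% of all genes) and 3 higher (12.9% of all genes), among the latter Ifi44 at 0.0888 and 0.398. In cDC2-like and monocyte-like cells the share of lower members exceeded that of all genes, whereas pDC-like cells as a whole went the other way. In pDC-like cells 11 of 39 were higher (18.1% of all genes) and 2, Isg15 and Mx1, lower (7.66% of all genes). Without the fibrosis sub-cluster with LSEC markers only 2 of 34, Ifngr1 and Ifitm1, were higher (11.5% of all genes) and 1, Isg15, lower (6.74% of all genes). In neutrophil-like cells 6 of 40 were higher (18.8% of all genes) and 5 lower (7.98% of all genes). In B cell-like cells 6 of 35 were higher (13.6% of all genes) and 2, Iigp1 and Igtp, lower (7.97% of all genes). In plasma cell-like cells 20 of 36 were higher (47.9% of all genes) and 2, Isg20 and Zbp1, lower (5.53% of all genes), a class in which nearly as large a share of all genes was higher.

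In lymphoid cells the 7 members called higher were Ifi207, Ifi44, Ifngr2, Rsad2, Ifitm1, Oasl2 and Irf8. Markers of other lineages were higher in the same cells, as the 16 LSEC markers summed to 17.4 and 42.0 and the 12 Kupffer markers to 6.34 and 37.1, all of them detected in both. In percent of their level in the source lineage, the Kupffer markers stood at a median of 6.70% and 33.6%, and the LSEC markers at 6.47% and 14.8%. The HSC/MF markers stood at 0.699% and 11.9% of their mesenchymal level. Ifi207 stood at 8.45% and 40.4% of its myeloid level, and Ifitm1 at 3.21% and 16.7% of its mesenchymal level. Erythroid-like cells held 0.424 and 2.11 of Ifi207, 0.141 and 1.01 of Ifi44, 0.141 and 0.819 of Oasl2, 0.156 and 0.798 of Ifitm1 and 0.573 and 3.16 of Irf8. That comparison is limited, since 10 of 10 erythroid markers were raised in the normal but 6 of 10 in the fibrosis erythroid-like cluster, where Kdr was at 16.6, Stab2 at 8.25 and C1qa at 8.37. The lymphoid levels of Ifi207, Ifi44, Oasl2 and Ifitm1 in fibrosis (0.979, 0.332, 0.413 and 0.485) were below those in erythroid-like cells. Rsad2 was at 0.191 and 0.573 in lymphoid cells, but erythroid-like cells held 5.09 and 1.42. A UMI of Ifi207 was found in 21.8% of lymphoid and 27.9% of erythroid-like cells of the fibrosis library, at median depths of 2158 and 1102 UMIs. Ifngr2 was at 0.782 beside 1.14 and Irf8 at 4.08 beside 3.16. With a mitochondrial limit of 5% the lymphoid ratios of Oasl2, Ifngr2 and Irf8 were 6.57, 6.20 and 4.30, and that of Rsad2 was 1.73, no longer past the 2-fold limit. With mixed sub-clusters included Ifi44 was at 2.16 and Rsad2 at 1.85. The 4 members called lower were Isg20, Zbp1, Isg15 and Iigp1, the last at 0.691 with the 5% limit. Of these Zbp1 (0.495 and 0.175, beside 0.0521 and 0.115) had a normal level well above that of erythroid-like cells, while Iigp1 in normal lymphoid cells (1.02) lay below that in erythroid-like cells (1.19). The level of Irf1 in fibrosis lymphoid cells (1.65) was also below that of erythroid-like cells (3.82). In the lymphoid cells at or below the median share of other lineages' markers, 7 of 38 members were called higher (13.8% of all genes) and 5 lower (6.5% of all genes). Of the 7 named first, 6 were called higher there too, the exception being Rsad2 (0.214 and 0.385), and all 4 lower ones were called lower. Those cells still held 12.1 and 33.1 of the summed LSEC markers and 4.72 and 26.8 of the summed Kupffer markers. The part of RNA from other cells in these differences was not tested.

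**Figure D4:**
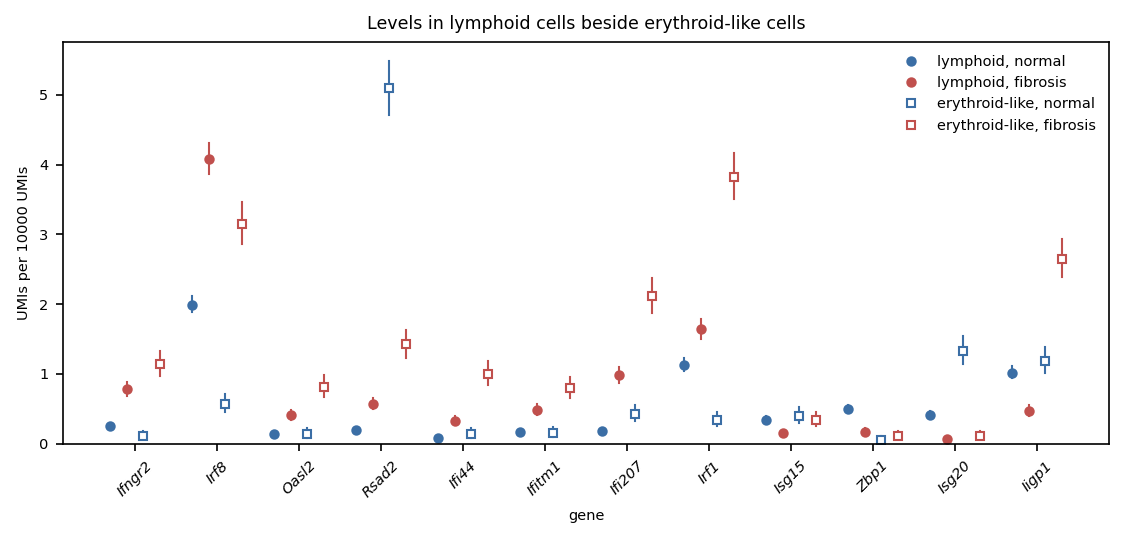
Level (UMIs per 10000 UMIs, exact 95% counting intervals) of the 11 members called in lymphoid cells, and of Irf1, in lymphoid cells (filled circles) and in erythroid-like cells (open squares) of the normal (blue) and fibrosis (red) library. The fibrosis square lies above the fibrosis circle for each gene except Irf8 and Zbp1, whose fibrosis levels are higher in lymphoid cells.

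The same summed level can come from all cells or from a few, so the type I core UMIs were also counted cell by cell after each cell was thinned to 1000 UMIs. At least 5 core UMIs were found in 54 of 2285 normal (2.36%, exact binomial interval 1.78% to 3.07%) and 22 of 1222 fibrosis endothelial cells (1.80%, 1.13% to 2.71%). In myeloid cells the shares were 5.20% (3.88% to 6.80%) and 3.71% (2.78% to 4.85%), and in lymphoid cells 0.741% (0.356% to 1.36%) and 0.163% (0.0197% to 0.587%). In mesenchymal cells they were 1.35% (0.164% to 4.80%) and 0.379% (0.00959% to 2.09%). These shares were lower in the fibrosis library in each lineage, but with a limit of 3 core UMIs they were higher in endothelial cells, at 10.98% and 11.95%, and in lymphoid cells, at 2.965% and 3.824%, and with a limit of 8 they were higher in myeloid cells, at 1.455% and 1.601%. With 1 library per condition the difference was not tested. Before thinning, the shares of cells with 5 or more were 48.8% and 76.7% in endothelial and 54.7% and 54.5% in myeloid cells. Near the limit, 61 normal and 35 fibrosis endothelial cells had 4 core UMIs. Among myeloid cells 40.3% of normal and 45.3% of fibrosis cells had 0, and the 5% of cells with the most core UMIs held 29.2% and 31.0% of all core UMIs of the lineage. In endothelial cells these shares were 22.7% and 17.1%.

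**Figure D5:**
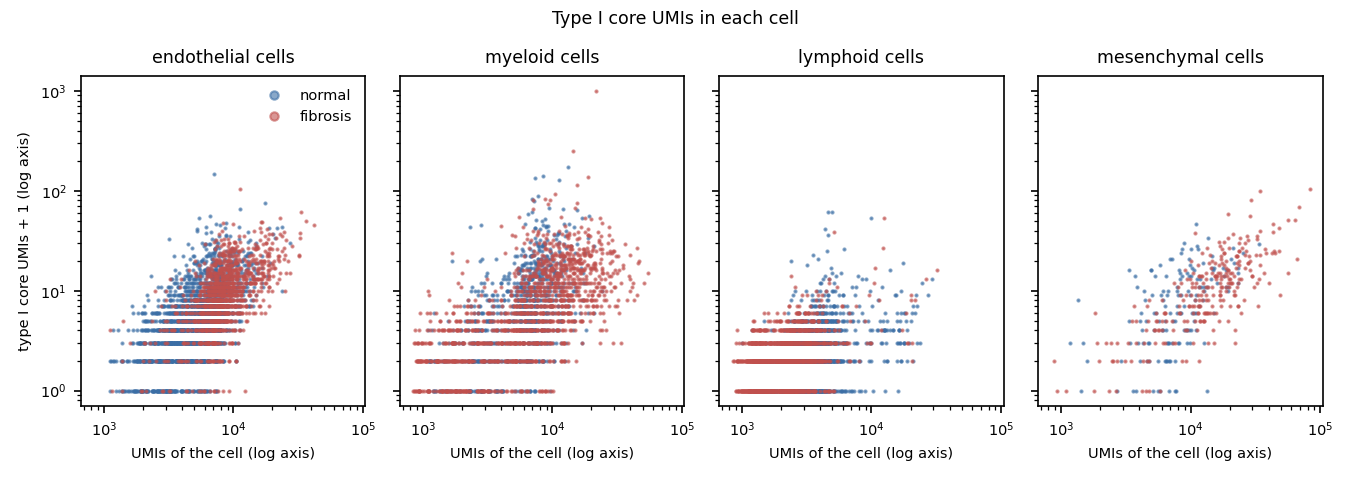
Type I core UMIs plus 1 (log axis) against total UMIs (log axis) of each cell in the 4 lineages, normal in blue and fibrosis in red. Core UMIs go up with depth in every panel, and 1 fibrosis myeloid cell lies alone at 1007 core UMIs, above the next myeloid cell at 250.

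That cell was classed as cDC1-like. It had 21555 UMIs with 5.08% from mitochondrial genes, and 1007 of them came from the type I core set, out of 1269 in all 48 cDC1-like cells of the fibrosis library. Its core UMIs were led by Ifit1 (270), Rsad2 (208), Ifit2 (144), Ifih1 (107), Isg15 (72) and Usp18 (59). The cell was also the main source of interferon RNA in the library. It held 298 of the 311 UMIs of Ifnb1 (interferon beta) in all kept fibrosis cells, 154 of the 160 of Ifnl2 and 51 of the 51 of Ifnl3 (interferon lambda), and 18 of the 18 of Ifna2. The chemokines Ccl4 (393) and Ccl5 (315) and the cytokine subunit Il27 (98) were further abundant transcripts. Of the defining markers of cDC1, Tlr3 was at 13 UMIs, Wdfy4 and Cadm1 at 5 each, Clec9a, Itgae and Ppt1 at 1 each and Xcr1, Naaa, Snx22 and Batf3 at 0, while the pDC marker Siglech was at 0. Irf8 was at 7 UMIs, or 3.25 per 10000, beside 28.5 in the class. In the normal library Ifnb1 was seen as 1 UMI in 1 pDC-like cell, and the cell with the most core UMIs, also cDC1-like, had 171. Without the 1 fibrosis cell the type I core sum of cDC1-like cells went from 29.6 to 6.43 (5.67 to 7.25) beside 8.29 (7.70 to 8.90) in the normal library. The myeloid ratio of the set went from 0.764 to 0.709, and that of Ifit1 from 1.30 to 0.752. For Rsad2 it went from 1.17 to 0.998 and for Ifih1 from 0.885 to 0.755.

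Interferon gamma itself, the ligand (Ifng), was lower in the fibrosis library. In lymphoid cells Ifng was at 1.27 and 0.304 UMIs per 10000 (0.238, 0.191 to 0.295). By name, with the limit given above for both classes, T cell-like cells held 498 Ifng UMIs in 209 of 560 normal cells and 56 in 47 of 448 fibrosis cells, and NK cell-like cells 213 in 89 of 208 and 38 in 23 of 147. Erythroid-like cells held 2 UMIs and 1 UMI. In all kept cells there were 1019 Ifng UMIs in 473 normal cells and 139 in 107 fibrosis cells.

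Of the other 87 pathway genes listed for comparison, signalling proteins and further targets were measured on the same scale. In myeloid cells 64 reached the floor, of which 3 were called lower (7.79% of all genes) and 2 higher (6.54% of all genes). An interval below 1 was found for 40 (33% of all genes) and above 1 for 10 (35.6% of all genes). The chemokine Cxcl9, a target of interferon gamma, had the smallest ratio there, at 2.34 and 0.226 (0.0967, 0.0849 to 0.110), followed by Phf11b (0.437) and Ifi211 (0.478). Those called higher were Il10rb, a chain of the interferon lambda receptor (1.45 and 2.92), and Ifnb1, from the cell described above. In endothelial cells 2 of 51 were called higher (3.03% of all genes) and 1 lower (5.7% of all genes). Cxcl10, a chemokine for T cells induced by both kinds of interferon, was at 4.10 and 10.5 (2.56, 2.48 to 2.64), Ptpn6, a phosphatase that restrains receptor signalling, at 0.174 and 0.406, and the mitochondrial protein Ifi27 at 1.18 and 0.533. Cxcl10 was not called in myeloid cells, at 1.56 and 1.21. In lymphoid cells 8 of 62 were called higher (13.8% of all genes), led by Cxcl10 (0.291 and 1.67) and Ifi211 (0.132 and 0.441), and 3 lower (6.77% of all genes), Ifng, Ifit1bl1 and Ifi27l2a. Cxcl10 was at 0.372 and 6.78 in erythroid-like cells. In mesenchymal cells 2 of 49, Cxcl10 and Slfn2, were called higher (6.72% of all genes) and 2 lower (7.45% of all genes), Cmpk2 at 0.428 and 0.106 (0.247, 0.165 to 0.369) and Ifi27 at 2.07 and 1.03.

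Over all named classes, 19 of the 45 members had the same highest class in both libraries. The highest class stood apart from the second, with intervals that did not overlap, for 16 members among normal and 18 among fibrosis cells. In the fibrosis library cDC1-like cells were the highest class for 11 members, against 4 in the normal library. Without the cell with 1007 core UMIs, 3 of those 11 (Mx1, Ifi35 and Ifi205) kept that class as the highest and 8 did not, and Ifngr2 joined them (1.77, beside 1.69 in patrolling monocyte-like cells). Only Ifi205 then stood apart from the second class, and over all members 22 had the same highest class in both libraries and 14 stood apart in fibrosis. With all cells, monocyte-like cells were the highest class for 7 and 6 members, portal vessel EC-like cells for 6 and 3, and pDC-like cells for 4 and 6 (fibrosis, then normal). HSC/MF-like cells were highest for 5 members in the normal library, Ifih1, Ddx58, Ifit1, Ifit3 and Ifit3b, but their levels stood apart from the second class for Ifit3 alone. In the fibrosis library they were highest for Ifitm1, and without the 1 cell for 3 members.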

How the data were processed

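Liver NPCs of 1 normal and 1 fibrotic mouse were profiled. The authors aligned reads to mm10 with Cell Ranger 3.0.1 and deposited raw UMI counts per gene and barcode, which are not normalized. Barcodes with 10% or more mitochondrial UMIs or 200 or fewer genes were left out, as the study's methods state. Each library was clustered in scanpy 1.11.5 (2000 variable genes without interferon genes, 10 principal components, 20 neighbours, Leiden resolution 0.8) and again within lineages, and clusters were named from marker lists. Scrublet called only 3 of 7471 and 1 of 6132 cells, and doublets were not removed here. The study's methods state that doublets were excluded with Scrublet. Whether the deposited barcodes are those that remained after that step was not tested. Levels are summed UMIs per 10000 UMIs with exact 95% Poisson intervals, ratios have exact conditional intervals and shares exact binomial ones (scipy 1.17.1), all for counting error only. With 1 library per group no test was run. The ratio script was tested on simulated data. The members and lists were chosen with earlier results of these data known. Genes were named by role, by a 2-fold difference at 0.2 UMIs per 10000 or more, and by highest class; further pathway genes were named as the called or outermost ratios of a lineage, and Ifng and other interferons after their values were seen. A gene of the pathway list is not reported here. Ratios per class need 50 cells in both libraries.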

Additional observations from a re-analysis of the deposited data

Results flagged for a closer look

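Some members were higher in one lineage of the fibrosis library and lower in another, each with a counting interval that left out 1. None of these differences was tested, since each condition is 1 library. For Irf8 the log2 ratio in mesenchymal cells exceeded that in myeloid cells by 2.46 (ratios 2.94 and 0.533). For Irf7 the same difference was 1.41 (ratios 1.68 and 0.630), and for Samhd1 it was 1.29 (1.61 and 0.659). For Ifitm1 the log2 ratio in lymphoid cells exceeded that in myeloid cells by 3.27 (2.94 and 0.304). Summed Kupffer markers were higher in the mesenchymal (5.10 and 14.3 UMIs per 10000) and lymphoid cells (6.34 and 37.1) of the fibrosis library. In lymphoid cells HSC/MF markers stood at a median of 0.699% and 11.9% of their mesenchymal level, and Ifitm1 at 3.21% and 16.7%. The part of RNA from other cells in these differences was not tested.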

How the results depend on the processing

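No paired analysis was possible because each group is 1 library, and for the same reason no replicate could be left out. As UMIs per cell, higher members numbered 6 in endothelial, 2 in myeloid, 2 in lymphoid and 13 in mesenchymal cells, and lower ones 6 in myeloid, 8 in lymphoid and 0 in mesenchymal cells. The type I core ratios were then 1.611, 1.074, 0.7301 and 1.482 and the GTPase ratios 1.339, 0.6799, 0.4927 and 1.1 (endothelial, myeloid, lymphoid, mesenchymal), and Iigp1 turned to 1.265 in endothelial and 1.136 in mesenchymal, Irf1 to 1.014 in myeloid and 0.8759 in lymphoid and Ifitm3 to 1.05 in mesenchymal cells, with Oasl2 at 1.732, Ifngr2 at 1.868 and Irf8 at 1.235 in lymphoid cells. Divided by the median ratio of all genes, the type I core was 0.9726 in endothelial, 0.9743 in lymphoid and 0.7457 in mesenchymal cells, the GTPases 0.8085 in endothelial and 0.6574 in lymphoid cells, and 5 mesenchymal members were lower. With a mitochondrial limit of 5%, 1 endothelial member was higher and 1 lower, 2 mesenchymal members were higher and 7 lower, the type I core was 0.8359 in myeloid and 1.349 in lymphoid cells, and the lymphoid GTPases turned to 1.068. Lymphoid Oasl2, Ifngr2, Irf8 and Rsad2 were then at 6.573, 6.198, 4.302 and 1.731 (2.871, 3.096, 2.047 and 2.994 as reported). With no mitochondrial limit, and at resolutions 0.4 and 1.5, 1 endothelial member was higher, and the endothelial GTPase ratio was 0.8179 at resolution 0.4. With a floor of 0.5, 0 myeloid and 4 lymphoid members were higher and 1 lymphoid member lower, and with no floor 2 mesenchymal members were higher. With equal weight for each class the type I core was 1.07 in endothelial and 1.011 in myeloid cells (0.7688 without the 1 cell below) and the GTPases 0.8856 in endothelial, 0.6115 in myeloid and 0.7289 in mesenchymal cells. Without the 1% of cells with the most UMIs of the set the type I core was 1.047 in endothelial and 0.7221 in myeloid cells. The share of cells high in core UMIs moved with its limit. Thinned to 2000 UMIs with a limit of 10 it was 1.498% and 1.072% in endothelial, 3.452% and 2.256% in myeloid and 0% in fibrosis mesenchymal cells. With a limit of 3 it was 10.98% and 11.95%, 15.07% and 12.95%, 2.965% and 3.824%, and 8.784% and 4.167% in endothelial, myeloid, lymphoid and mesenchymal cells. With a limit of 8 it was 0.3939% and 0.08183% in endothelial, 1.455% and 1.601% in myeloid, 0% in fibrosis lymphoid and 0% in both mesenchymal groups.

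The next 5 alternatives were chosen after seeing the data. With mixed sub-clusters included the type I core was 0.9893 in endothelial, 0.7873 in myeloid and 1.142 in lymphoid cells, the myeloid GTPases 0.5519, and 0 mesenchymal members were higher. In cells below the median in markers of other lineages, 1 endothelial and 2 mesenchymal members were higher, the type I core was 0.9522, 0.7861, 1.033 and 0.877, the myeloid GTPases 0.4004, and Iigp1 turned to 1.08 in mesenchymal cells. Without the 1 fibrosis cell with 1007 core UMIs the myeloid type I core was 0.7089, and with equal class weight as well it was 0.7688, in place of 1.011, and the myeloid GTPases were 0.5908. Against the larger fibrosis sub-cluster of pDC-like cells alone 2 members were higher and 1 lower, and the counts of HSC/MF-like cells stayed within 1.5 times. The cause of these changes was not tested. Of the ratios of single genes 301 stayed within their interval, 96 moved and 6 turned, and of the set ratios 65, 27 and 8. Depth limits members under 0.2 UMIs per 10000, such as Mx1 in endothelial and Oas1a in lymphoid cells.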

Other observations

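Erythroid-like cells, which stand beside the lymphoid cells in the comparisons above, held Rsad2 and Isg20 at over 3 times the lymphoid level in the normal library. Rsad2 was at 5.09 UMIs per 10000 in the normal library (684 UMIs in 205 of 423 cells) and 1.42 in the fibrosis library (198 UMIs), beside 0.191 and 0.573 in lymphoid cells. Isg20 was at 1.33 (179 UMIs in 120 cells) and 0.115, beside 0.409 and 0.0751. Median UMIs per erythroid-like cell were 3312 and 1102. Ifitm3 was at 14.2 and Bst2 at 6.46 in the 148 hepatocyte-like cells of the fibrosis library, and Irf8 at 6.57 in the 259 normal cells of clusters named as cycling. These names were given to whole clusters of 1 library only, but the other library held such cells too, as 2 unnamed normal clusters in which 11 of 11 hepatocyte markers were raised and as 244 fibrosis cells in cycling sub-clusters.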
